A study of Mus musculus with 3 samples.

Results

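The genes described here encode the proteins of the cytosolic ribosome. A gene was included when its symbol began with Rpl or Rps followed by a number (with an optional a, x or l and 1 optional further digit) or was Rplp0, Rplp1, Rplp2 or Rpsa, and when it had a probe set annotated with only 1 symbol. The rule uses names alone and no measured value. It found 67 of the 22180 genes measured on such probe sets, 42 of the large subunit (Rpl) and 25 of the small subunit (Rps), and 65 of the 67 are protein coding in RefSeq. RefSeq lists 89 mouse genes that fit the name. Of the others, 12 were measured only on probe sets annotated with several symbols (Rpl10, Rpl12, Rpl13a, Rpl23, Rpl24, Rpl31, Rpl35a, Rpl36, Rpl36a, Rps15a, Rps2 and Rps21), and the rest were not analysed here.

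Liver RNA of C57BL6/J wild-type mice, 6 months old, was measured on 3 Mouse Gene 2.0 ST arrays. One array held RNA from mice given insulin (recombinant human, 0.75 U/kg body weight), another from mice given glucagon (50 ng/g body weight), and the reference array from mice given PBS, all injected intraperitoneally and dissected after 60 min. The PBS and insulin mice were males that had been fasted, per the study's methods, which do not describe the glucagon array, so the feeding state and sex of the glucagon mice are not given in the sources used here. Each array carried a pool of RNA (5 mice per the labels, while the methods give a larger number for PBS and insulin), so each condition had 1 value per gene, no spread between animals could be measured, and no difference below has a replicate check or a p-value. The values are log2 signals after robust multichip averaging, and a log2 ratio is the difference of log2 signals between 2 arrays. In whole-liver RNA, fewer cells of a type and less RNA per cell cannot be told apart.

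A cytosolic ribosome is built from a large (60S) and a small (40S) subunit, each a core of ribosomal RNA with its own set of small, mostly basic proteins, and one copy of nearly every protein is needed for each particle. The messenger RNAs of these proteins are abundant and long-lived in liver. In mammals most begin with a short pyrimidine stretch at the 5′ end, the terminal oligopyrimidine (TOP) tract, through which insulin and amino acids, acting by way of the kinase mTORC1 and the protein LARP1, control how many of these messengers are being translated. That control acts on translation, which an array of total RNA does not measure.

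RefSeq promoter records (build GRCm38.p6, 250 bases before and 50 after an annotated start) matched 52 of the 67 genes, with 61 promoters. In 11 of the 52 genes (21.2%) the annotated start was a C followed by at least 4 more C or T, against 3.01% of the 27025 genes in the table. A run of at least 8 C or T anywhere from 30 bases before the start onwards was present in 40 of the 52 (76.9%), against 32.3% of all genes. The windows below run from 25 bases before the start to 25 bases from it onwards, 5′ to 3′ on the gene's own strand, with the tract at the start in capitals. They show the tract, which was more frequent in this family than among all genes, and beside it Rps25 and Rpl19, which lack a tract at the annotated start and to which the values return. A tract was scored only where it began at the annotated start. Rps25 and the second start of Rpl19 have a run of C or T shortly before it, left in small letters.
Rpl35 (chr2:39005107-39005156, minus strand): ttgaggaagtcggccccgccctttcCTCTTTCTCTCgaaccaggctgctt
Rps6 (chr4:86857343-86857392, minus strand): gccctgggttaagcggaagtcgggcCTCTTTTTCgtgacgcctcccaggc
Rpl14 (chr9:120571492-120571541, plus strand): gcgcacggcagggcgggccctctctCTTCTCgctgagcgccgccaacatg
Rpl15 (chr14:18270962-18271011, minus strand): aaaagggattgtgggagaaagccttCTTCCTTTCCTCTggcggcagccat
Rps18 (chr17:33955641-33955690, minus strand): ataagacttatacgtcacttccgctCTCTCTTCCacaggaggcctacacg
Rplp2 (chr7:141447626-141447675, plus strand): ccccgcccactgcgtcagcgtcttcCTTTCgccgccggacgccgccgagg
Rps25 (chr9:44407689-44407738, plus strand): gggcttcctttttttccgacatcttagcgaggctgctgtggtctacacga
Rpl19, first annotated start (chr11:98026685-98026734, plus strand): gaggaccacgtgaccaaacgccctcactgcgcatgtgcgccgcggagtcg
Rpl19, second annotated start (chr11:98026899-98026948, plus strand): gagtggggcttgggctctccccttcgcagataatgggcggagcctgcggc

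Across the same promoters, on both strands, the letters CCGGAAG (bound by ETS factors such as GABP) were found in 23 of the 52 genes (44.2%), against 9.93% of all genes, and TGACGTCA (the cAMP response element) in 4 (7.69%), against 2.03%. AAGATGGC (bound by YY1) was found in 3 (5.77%), against 3.19%, and GTAAACA (bound by FoxO factors) in 1 (1.92%), against 4.05%. CCGGAAG and AAGATGGC can overlap by the letters AAG, and a match describes the sequence alone. The 11 genes with a tract at the annotated start had a median log2 ratio of insulin against PBS of 0.06, with 9 of 11 higher in insulin, and the other 41 genes one of 0.08, with 32 of 41 higher. These 41 include genes with a run of C or T close to the annotated start, such as Rps25.

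The arrays were alike in their overall level, with a median log2 signal of 3.06 for insulin, 3.05 for glucagon and 3.07 for PBS over 41345 probe sets. The labels name the tissue as liver, although their extraction text speaks of ovary. The 8 hepatocyte markers summed to a log2 signal of 15.34, 15.35 and 15.27 on the insulin, glucagon and PBS arrays, while the 6 ovary markers reached at most 3.63 on any array. Lymphocyte markers reached at most 3.12, and their summed signal was 5.45 for insulin, 5.23 for glucagon and 5.33 for PBS. The 6 Kupffer cell markers summed to 9.49, 9.17 and 9.38 in the same order, and the 5 endothelial markers to 9.87, 9.66 and 9.70. Among the Kupffer cell markers Marco was above PBS by 0.71 with insulin, while the others lay from -0.11 (Cd5l) to 0.12. With glucagon Cd5l was the furthest below PBS (-0.58), and the others lay from -0.21 to 0.05. Among the endothelial markers Lyve1 was above PBS by 0.99 with insulin, while the others lay from -0.10 to 0.08. Slc4a1, the only erythroid marker measured, was above PBS by 0.55 with insulin at a low signal. The part of these cells in the ratios below was not tested.

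In the liver 60 min after insulin, the ribosomal protein genes stood slightly above PBS as a family, and no member moved far. Their median log2 ratio was 0.07 (1.05-fold), against 0.01 over all genes, and 52 of the 67 were higher with insulin than with PBS, 14 lower and 1 (Rpl3l) equal, where 51.2% of all genes were higher. None of the 67 passed 2-fold in either direction, limits that 0.388% of all genes passed upwards and 0.216% downwards. Past 1.2-fold, 8 members were higher (14.6% of all genes were) and 5 lower (13.7% of all genes), so members past that limit made up no larger a share than among all genes. Past 1.5-fold, 4 of the 67 were higher and 1 lower, against 533 and 433 of all 22180 genes. Of those 4 members, 3 had a log2 signal below 6.

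The picture depended on how bright the probe set was. Of the 67 genes, 36 had a mean log2 signal of at least 6 over the 3 arrays and 31 lay below, 8 of them under the array-wide median on every array, although these messengers are among the most abundant of a cell. The signal range over the 3 arrays had a median of 0.16 for the 36 bright members and 0.39 for the 31 dim ones, against 0.22 and 0.27 for all genes of the same classes. Of the members whose brighter array in the pair reached a log2 signal of 6, 34 of 37 were higher with insulin than with PBS (median 0.07), against 57.5% of all genes that bright (median 0.03). At a log2 signal of at least 8, a limit chosen after the values were seen, 27 of 27 were higher (median 0.09, from 0.0002 to 0.25), against 56.8% of all genes that bright (median 0.03). A limit on the brighter array favours a gene on the side where it is high: Rpl10a reached 8 with insulin but not with PBS, so its direction followed from the limit, as did that of Rps18, which reached 6 with PBS but not with insulin. With the limit of 8 set on the mean of the 3 arrays, 28 of 28 were higher with insulin (median 0.08), against 56% of all genes of that mean signal. Below 6, 18 of 30 were higher, with ratios from -0.65 to 0.89.

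**Figure D1:**
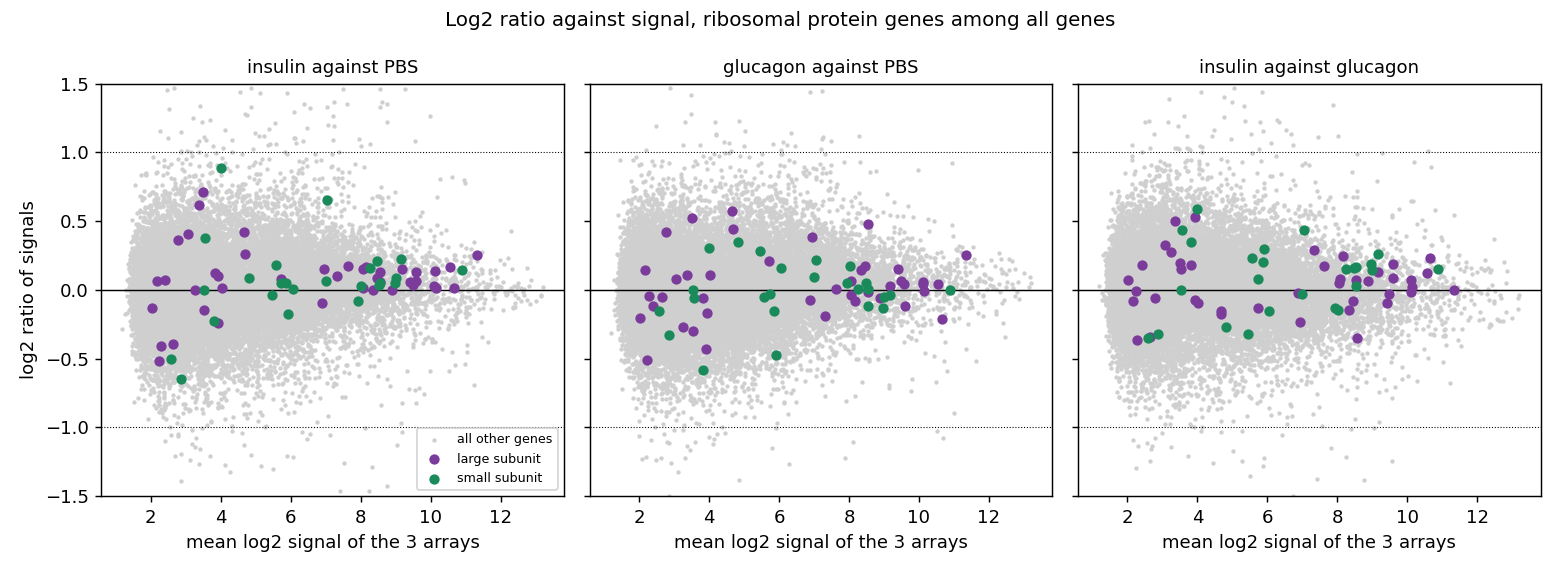
Log2 ratio of signals (vertical) against mean log2 signal of the 3 arrays (horizontal) for insulin against PBS, glucagon against PBS and insulin against glucagon, with 1 point per gene, large subunit genes in purple, small subunit genes in green, all other genes in grey and dotted lines at 2-fold. Genes with a log2 ratio beyond 1.5 in either direction are not drawn, and the ribosomal protein genes spread from -0.65 to 0.89 for insulin against PBS on dim probe sets while the 27 brightest lie just above 0.

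The count of 27 of 27 depended on how the arrays were scaled to each other. After quantile normalization of the 3 arrays 23 of the 27 were higher with insulin (median 0.06, against 0.00 for all genes that bright), and after centring the arrays on all genes with a mean signal of at least 8 the count was 21 of 27 (median 0.06). Median centring left it at 27. For the 37 members of at least 6, the counts were 28, 26 and 34 under the same 3 scalings. Over all 67 genes, quantile normalization gave a median of 0.04 with 48 higher, centring on bright genes 0.04 with 43 higher, and averaging all probe sets of a gene 0.05 with 45 higher and 21 lower. The median thus stayed above 0 under each of these 3 settings, and below the 0.07 of the deposited values.

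Several of the brightest genes showed the difference most plainly. Rpl21, a large subunit protein, had log2 signals of 11.42 with insulin and 11.42 with glucagon, against 11.16 with PBS, so both hormone arrays stood above PBS by 0.25. Rps12, a protein of the 40S head, had 9.33 with insulin, 9.06 with glucagon and 9.10 with PBS, a log2 ratio of 0.23 for insulin against PBS, with the glucagon array level with PBS. Another 6 of its probe sets held values identical to each other, with a ratio of 0.32 for insulin against PBS, and count as 1 measurement, and an eighth probe set had a ratio of 0.09. Rps3, which lines the entry of the messenger RNA channel and is also a DNA repair endonuclease, had 8.60 with insulin, 8.44 with glucagon and 8.39 with PBS (0.21 for insulin against PBS). A brighter probe set that Rps3 shares with a snoRNA had 10.26, 10.12 and 10.25 in the same order, a ratio of 0.01.

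Rpl4, whose long loop reaches into the exit tunnel, had 10.65 with insulin, 10.52 with glucagon and 10.48 with PBS (0.17 for insulin against PBS). Rpl14 had 8.30 with insulin, 8.05 with glucagon and 8.13 with PBS (0.17), and Rpl27 had 7.74, 7.57 and 7.57 in the same order (0.18). On the probe set that stood for each of these genes, Rpl21 aside, the insulin array was the highest of the 3. The glucagon and PBS arrays there lay closer to each other than to it.

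Rps6, the substrate of S6 kinase and the protein whose phosphorylation is read as a sign of mTORC1 activity, had a log2 signal of 10.98 with insulin, 10.83 with glucagon and 10.83 with PBS. Its messenger RNA was thus higher by 0.15 with insulin than with either of the other arrays (1.11-fold against PBS). Rpsa, the laminin receptor, which is also a small subunit protein, had 9.08 with insulin, 8.94 with glucagon and 8.99 with PBS (0.09 against PBS). Rps19, the gene most often mutated in human Diamond-Blackfan anemia, had 7.98 with insulin, 8.13 with glucagon and 7.96 with PBS, with the glucagon array the highest.

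Other bright genes differed in the order of the arrays. In Rpl13, Rpl15, Rpl7a, Rpl10a and Rps9 the insulin array was the highest and PBS the lowest, as in Rpl15 with 10.18 with insulin, 10.10 with glucagon and 10.04 with PBS, and in Rps9, a protein of the 40S body, with 8.36, 8.21 and 8.20. Further probe sets of Rpl13 differed in direction. A second one of its own had 5.94 with insulin, 6.24 with glucagon and 6.39 with PBS (-0.45 for insulin against PBS), one shared with a pseudogene and a snoRNA had a ratio of -0.24, and one shared with the pseudogene alone had a ratio of 0.16. The glucagon array was the highest of the 3 in 12 of the 36 members with a mean signal of at least 6. In Rpl29, Rpl3, Rps4x and Rps28 insulin stood above PBS and glucagon below it, although a second probe set of Rpl29 had 6.67 with insulin, 6.74 with glucagon and 6.90 with PBS (-0.24 for insulin against PBS). Rpl3, which reaches towards the peptidyl transferase centre, had 7.46 with insulin, 7.17 with glucagon and 7.36 with PBS, and Rps4x, the X-linked form of its protein, was above PBS by 0.05 with insulin and below it with glucagon (-0.13). Rpl41, the smallest ribosomal protein, and Rps26 barely differed between the arrays, with 10.15 with insulin and 10.14 on both other arrays for Rpl41 and a range of 0.04 for Rps26. Over the 11 further single-symbol probe sets of members with a signal of at least 6 and values of their own, 7 were higher with insulin than with PBS and 4 lower (median 0.05).

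Rpl19 encodes a large subunit protein at the tunnel exit, and its messenger is the one to which the study scaled its PCR measurements. It was one of the steadiest members, at 9.48 with insulin, 9.52 with glucagon and 9.45 with PBS, a log2 ratio of 0.03 for insulin and 0.07 for glucagon against PBS. Rplp0, another common reference for PCR, had 6.85 with insulin, 6.87 with glucagon and 6.94 with PBS, and was 1 of the 3 members of at least 6 that were lower with insulin (-0.09). Rps18, used the same way, was dimmer and less steady, at 5.96 with insulin, 5.66 with glucagon and 6.14 with PBS. Over the 13 measured genes of a list of PCR references the median ratio was 0.08 for insulin and 0.05 for glucagon against PBS, with Rps18 the lowest for both hormones (-0.18 and -0.47).

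**Figure D2:**
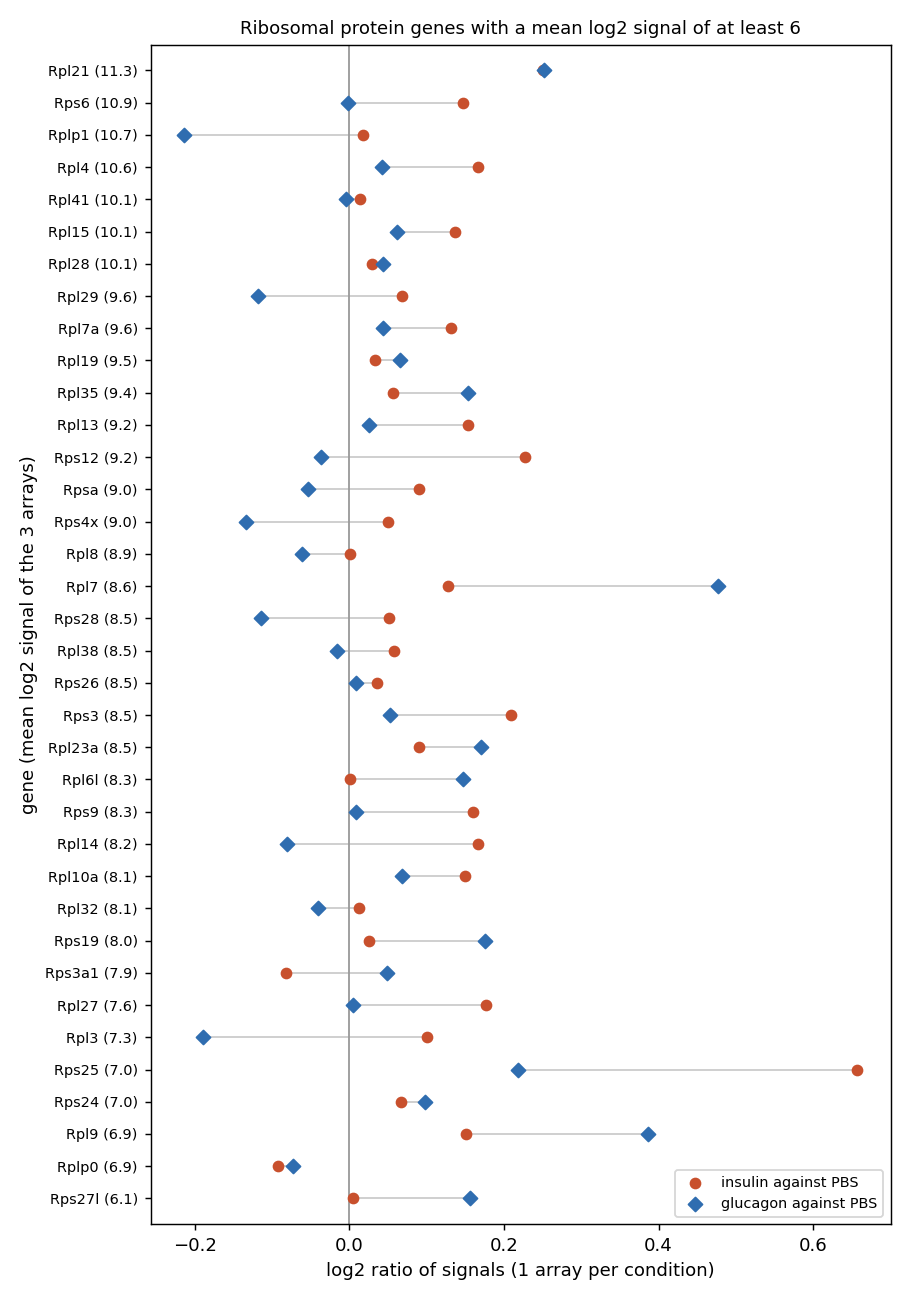
Log2 ratios of insulin against PBS (circles) and glucagon against PBS (diamonds) for the 36 ribosomal protein genes with a mean log2 signal of at least 6, ordered by signal, with 1 array per condition and no error bars. Circles lie right of 0 for all but Rps3a1 and Rplp0, Rps25 stands apart at 0.66, and diamonds fall on both sides from -0.21 for Rplp1 to 0.48 for Rpl7.

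The widest insulin ratios belonged to dim probe sets, with 1 exception. Rps25, a protein of the 40S head that viral internal ribosome entry sites need, had 7.42 with insulin, 6.98 with glucagon and 6.76 with PBS, a ratio of 0.66 (1.58-fold) and the widest among members of at least 6. It has a single probe set with 1 symbol here. A dimmer probe set annotated also with Ccdc84 had 4.72 with insulin, 5.05 with glucagon and 4.44 with PBS, above PBS with insulin as well (0.29) but with the glucagon array the highest.

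Rps23, which lies at the decoding centre, had the largest ratio of all members, 0.89 (1.85-fold), from log2 signals of 4.49 with insulin, 3.90 with glucagon and 3.60 with PBS. Next came Rpl17 (0.72), a protein of the tunnel exit with 3.81, 3.61 and 3.09 on the insulin, glucagon and PBS arrays, and Rpl39l (0.61), the paralogue of Rpl39 best known from the testis, with 3.75, 3.24 and 3.13. Rpl39 itself had 3.31 with insulin, 2.98 with glucagon and 2.90 with PBS (0.41). All 4 lie within the dim class, and for Rpl39 and Rpl39l these signals are close to the array-wide median.

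The lowest ratios for insulin against PBS came from equally dim probe sets. Rps20, a protein of the 40S head, had 2.54 with insulin, 2.86 with glucagon and 3.19 with PBS (-0.65), Rps15 had 2.30, 2.65 and 2.80 (-0.50), and Rpl32l, annotated as like Rpl32, had 2.07, 2.07 and 2.58 (-0.52). Rpl27a (-0.41), Rpl30 (-0.39) and Rpl37 (-0.24) followed. A second probe set of Rps20, about as dim, had 2.93 with insulin, 2.74 with glucagon and 2.76 with PBS. Its ratio of 0.17 for insulin against PBS was of the opposite sign. Rpl27a and Rpl30 also had brighter probe sets that also carry the symbol of a predicted gene. On these, Rpl27a had 10.09 with insulin, 10.04 with glucagon and 10.12 with PBS, a ratio of -0.03, and Rpl30 had 9.03, 9.08 and 8.85, a ratio of 0.18 and so of the opposite sign.

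**Figure D3:**
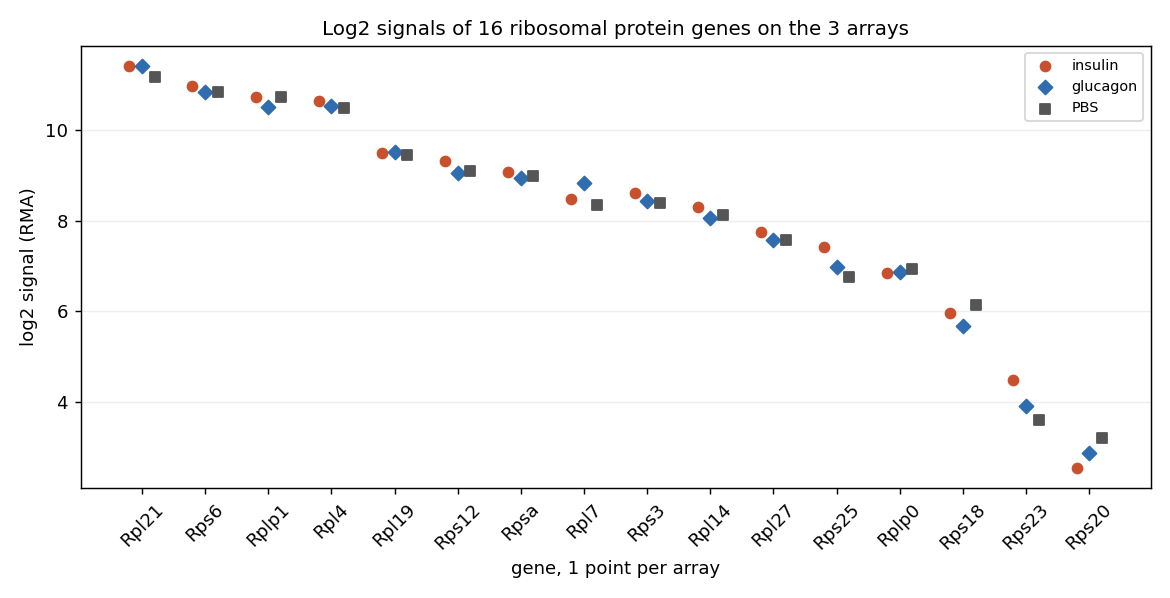
Log2 signals of 16 ribosomal protein genes on the insulin (circles), glucagon (diamonds) and PBS (squares) arrays, 1 point per array and no error bars. Levels are not comparable between genes because each probe set has its own response, and within genes the insulin point is the highest for Rps6, Rps12, Rps25 and Rps23 and the lowest for Rplp0 and Rps20.

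With glucagon the family showed no shared direction. The median log2 ratio of glucagon against PBS was 0.01 (0.00 over all genes), with 34 of 67 higher and 33 lower, where 50.2% of all genes were higher. No member passed 2-fold, limits passed by 0.185% of all genes upwards and 0.153% downwards. Past 1.2-fold, 9 members were higher (13.8% of all genes) and 7 lower (14.5% of all genes). Among members of at least 6, 22 of 37 were higher (median 0.03), a share close to the 61.4% of all genes that bright (median 0.06), and at a signal of at least 8 it was 16 of 28 (median 0.02), against 63.8% of all genes (median 0.06). Rps19 and Rpl10a, both counted as higher, reached 8 with glucagon but not with PBS. With the limit of 8 on the mean of the 3 arrays it was again 16 of 28, against 63.2% of all genes of that mean signal. The sign of the family's median flipped with the scaling. Under quantile normalization it was -0.03 over all 67 and -0.04 over the 28 brightest. Of these 28, 9 were higher with glucagon than with PBS, against 49.9% of all genes that bright.

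Single genes spread to both sides. Rpl7, a large subunit protein, was the brightest gene with a wide glucagon ratio, at 8.83 with glucagon, against 8.35 with PBS (0.48) and 8.48 on the insulin array. Rpl9 had 7.16 with glucagon and 6.77 with PBS (0.39), with 6.92 on the insulin array. Second and dimmer probe sets of both genes went the other way, with ratios of -0.40 for Rpl7 and -0.55 for Rpl9 for glucagon against PBS. Rpl7l1, the paralogue of Rpl7, had the highest ratio, 0.57, at 4.90 with glucagon and 4.33 with PBS, and it was above PBS with insulin too (4.75, a ratio of 0.42).

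Rpl5 and Rpl11, which with 5S ribosomal RNA form the particle that binds Mdm2 and thereby stabilises p53, were both above PBS with both hormones on dim probe sets. Rpl5 had 4.71 with insulin, 4.89 with glucagon and 4.45 with PBS, and Rpl11 had 2.88, 2.94 and 2.52. Their glucagon ratios were 0.44 and 0.42, and their insulin ratios 0.26 and 0.36. A brighter probe set that Rpl5 shares with a pseudogene had 7.69 with insulin, 7.62 with glucagon and 7.68 with PBS, without that difference.

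The 6 genes furthest below PBS with glucagon all had a mean signal below 6. Rps14, a protein of the 40S platform that is haploinsufficient in the human 5q- syndrome, had 3.50 with glucagon and 4.09 with PBS (-0.58), with 3.86 on the insulin array. Rpl32l (-0.51), Rps18 (-0.47), Rpl26 (-0.43), Rps20 (-0.33) and Rpl6 (-0.30) followed. For Rpl26 a shared and brighter probe set had 9.41 with glucagon and 9.37 with PBS, a ratio of 0.04, so the difference was not seen there. Among bright genes Rplp1 was the lowest, at 10.51 with glucagon, against 10.72 with PBS and 10.74 on the insulin array (-0.21 for glucagon against PBS).

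Set against each other, the insulin array stood above the glucagon array in 39 of the 67 genes and below it in 27, with a median log2 ratio of 0.07 (0.01 over all genes, of which 51.1% were higher with insulin). None passed 2-fold, where 0.293% of all genes were past it upwards and 0.194% downwards. Past 1.2-fold 11 were higher with insulin (14.1% of all genes) and 7 lower (12.8% of all genes). Among members of at least 6, 23 of 36 were higher with insulin than with glucagon, against 45.9% of all genes that bright, and at a signal of at least 8 it was 20 of 28 (median 0.08), against 44.1% of all genes that bright (median -0.02). With the limit on the mean of the 3 arrays it was again 20 of 28, against 43.9% of all genes. Quantile normalization and centring on bright genes each gave 23 of those 28. The genes that went the other way included Rpl7 (-0.35), and those furthest up were Rps23 (0.59), Rpl26 (0.53), Rpl39l (0.50) and Rps25 (0.44).

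The order of the 3 arrays within each gene says the same in another form. Among the 36 members with a mean signal of at least 6, the insulin array was the highest in 23, the glucagon array in 12 and the PBS array in 1 (Rplp0), against 33.5%, 41.8% and 24.8% of all genes that bright. At a mean signal of at least 8 the insulin array was the highest in 20 of 28, the glucagon array in 8 and the PBS array in none, against 32.9%, 44.4% and 22.7% of the genes. The PBS array was the lowest in 16 of these 28 and the glucagon array in 12. Because the hormone ratios share the PBS array, a PBS value that is low by chance raises both, and no replicate of that array exists.

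Both subunits had medians above 0 with insulin. The 42 large subunit genes had a median ratio of 0.07 for insulin against PBS (34 higher) and 0.03 for glucagon against PBS (23 higher). The 25 small subunit genes had 0.05 for insulin (18 higher), while 11 were higher with glucagon than with PBS. Within the small subunit, the 11 measured genes of the 40S head had medians of 0.05 for insulin (8 higher) and -0.06 for glucagon (3 higher), and the 12 of the body and platform had 0.08 (9 higher) and 0.01 (7 higher). Of all 67 members 77.6% were higher with insulin and 50.7% with glucagon, and of all genes 51.2% and 50.2%. Among the head genes Rps16, at 3.83 with insulin, 3.39 with glucagon and 3.45 with PBS, had a ratio of 0.38, but on a brighter probe set shared with pseudogenes it had 8.94, 9.06 and 8.99.

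At the mouth of the exit tunnel, where chaperones and the signal recognition particle dock, all 7 measured genes (Rpl17, Rpl19, Rpl22, Rpl23a, Rpl26, Rpl35 and Rpl39) were higher with insulin than with PBS, with a median of 0.10 and ratios from 0.03 to 0.72. Of all 67 members 77.6% were higher, and of all genes 51.2%. The largest of these ratios, of Rpl17, Rpl39, Rpl22 and Rpl26, came from probe sets with a mean signal below 6. A brighter shared probe set of Rpl26 had a ratio of 0.03. With glucagon 5 of the 7 were higher, against 50.7% of all members. Rpl35 was above PBS by 0.06 with insulin and by 0.15 with glucagon, and Rpl23a had 8.46 with insulin, 8.54 with glucagon and 8.37 with PBS, so in both the glucagon array was the highest.

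The P stalk recruits elongation factors to the ribosome and consists of Rplp0, Rplp1, Rplp2 and the base protein Rpl12. Its measured genes did not share a direction. Rplp1 differed little with insulin (0.02) and Rplp0 was lower (-0.09), while Rplp2 had a signal of only 2.17 with insulin, 2.25 with glucagon and 2.10 with PBS on its own probe set. A brighter probe set that Rplp2 shares with a small nucleolar RNA had 8.10 with insulin, 7.81 with glucagon and 7.91 with PBS. Rpl12, measured only on shared probe sets, had 9.86 with insulin, 9.64 with glucagon and 9.71 with PBS on the one with the highest signal.

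Human Diamond-Blackfan anemia is a red cell aplasia caused by loss of 1 copy of a ribosomal protein gene. Of the 15 measured genes mutated in it, 14 were higher with insulin than with PBS (median 0.07), against 77.6% of all 67 members. The exception was Rps20, on the brighter of its probe sets. With glucagon 9 of the 15 were higher (median 0.01), against 50.7% of all members. Paralogues are copies related to a core protein, some of them tissue-specific. Of 7 (Rpl10l, Rpl22l1, Rpl39l, Rpl3l, Rpl7l1, Rps27l and Rps4l), 4 were higher with insulin and 4 with glucagon, against 51.2% and 50.2% of all genes. Of these 7 paralogues, 6 had a mean signal below 6. Rps27l, a p53 target and the only one of them with a mean signal of at least 6, had 6.01 with insulin, 6.16 with glucagon and 6.01 with PBS. Leaving the paralogues out, 48 of 60 genes were higher with insulin, with the median again at 0.07.

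**Figure D4:**
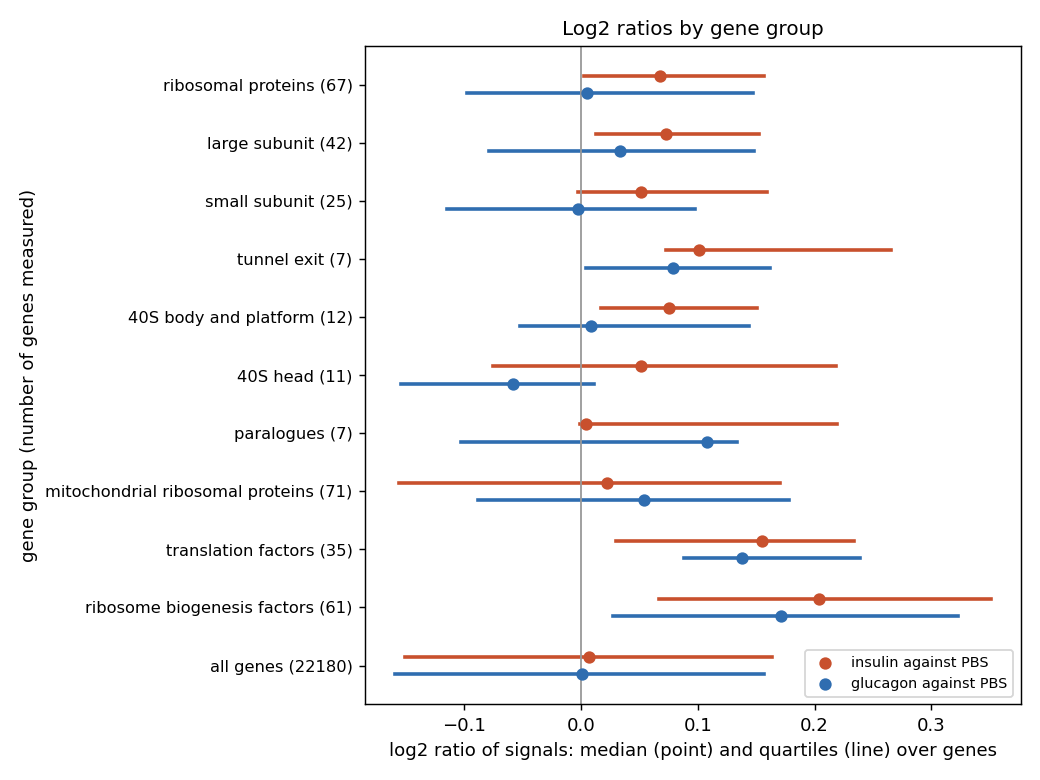
Median (point) and quartiles (line) over genes of the log2 ratio of insulin against PBS (orange) and glucagon against PBS (blue) for the ribosomal protein genes, their subgroups, related gene lists and all 22180 genes, with the number of genes in brackets. The lines show the spread over genes and not an error of measurement, and the largest medians belong to translation factors (0.15 and 0.14) and ribosome biogenesis factors (0.20 and 0.17).

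Other gene groups of the translation apparatus had larger median ratios than the ribosomal proteins. Of 35 measured translation factors, 31 were higher with insulin than with PBS (median 0.15) and 30 higher with glucagon (median 0.14). The largest was Eif3j1, a loosely bound subunit of the initiation factor eIF3, with 5.57 with insulin, 5.45 with glucagon and 5.04 with PBS. The lowest ratios of insulin against PBS were those of Eif2s2 (-0.16), Eif3f (-0.12) and Gspt1 (-0.04). Of 61 measured ribosome biogenesis factors, which make and process ribosomal RNA in the nucleolus, 51 were higher with insulin (median 0.20) and 47 with glucagon (median 0.17). Of all genes 51.2% were higher with insulin and 50.2% with glucagon, and of genes with a signal of at least 6, 57.5% and 61.4%. Ribosomal protein genes of at least 6 had medians of 0.07 and 0.03, and the other lists were not limited by signal. Nolc1, a nucleolar scaffold, had 6.61 with insulin, 6.45 with glucagon and 5.67 with PBS. Nop56, a core protein of the box C/D particles that methylate ribosomal RNA, had 6.81, 6.37 and 5.88, and its partner Nop58 had 7.14, 6.93 and 6.34. At the other end, Utp14a (-0.75), Gar1 (-0.34) and Taf1d (-0.13) had the lowest ratios of insulin against PBS among the biogenesis factors.

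The 71 mitochondrial ribosomal protein genes, which serve the separate ribosome of that organelle, had a median of 0.02 for insulin against PBS (37 higher) and 0.05 for glucagon against PBS (41 higher). Of all genes 51.2% and 50.2% were higher. Fau, which is translated as a fusion with a small subunit protein and lies outside the naming rule, was above PBS by 0.12 with insulin and by 0.16 with glucagon. In a list of 25 genes of mTORC1 and S6 kinase signalling the medians were 0.00 and 0.02, and the one wide ratio was that of Ddit4 (REDD1), an inhibitor of mTORC1, at 3.07 for insulin and 0.99 for glucagon against PBS.

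Many ribosomal protein genes carry small nucleolar RNA (snoRNA) genes in their introns, which guide the modification of ribosomal RNA. By RefSeq position 45 snoRNA genes lay inside 22 of the 67 genes, and 14 of them, in 12 hosts, had a probe set of their own. Against PBS 8 of the 14 were higher with insulin (median 0.02), where 51.2% of all genes were. With glucagon 3 were higher (median -0.12), where 50.2% of all genes were. Of the 14, 12 were higher with insulin than with glucagon (median 0.23), against 51.1% of all genes. SnoRNAs outside these hosts were not compared here. Snord73a, inside Rps3a1, had 6.81 with insulin, 6.22 with glucagon and 6.76 with PBS, with the glucagon array the lowest. Rps3a1 itself was below PBS with insulin (-0.08) and above it with glucagon (0.05), with the glucagon array the highest. Snord73b, a brighter snoRNA inside the same host, had 9.89 with insulin, 9.58 with glucagon and 9.55 with PBS, with the PBS array the lowest.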

How the data were processed

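The 3 pooled liver RNA samples (insulin, glucagon, PBS) were measured on 1 array each. The authors summarised the probe signals by robust multichip averaging (RMA, in Expression Console 1.3.0) and deposited log2 signals for 41345 probe sets, a method that subtracts background and normalizes. Of these, 23521 carried 1 gene symbol, 1820 several and 16004 were unnamed here. The brightest single-symbol probe set stood for a gene. Low signals are compressed towards background, so ratios of dim genes are the least certain.

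Log2 ratios were differences between 2 arrays of the deposited log2 signals. No test was made, as each condition had 1 array, and counts were set beside the same counts over all 22180 genes. The 2-fold limits are those the study used for its arrays. Members and gene lists were chosen with earlier results of these data known. Named genes came from those with a role in the lists, the paralogues, PCR references and the 6 highest and 6 lowest of each contrast. They also came from the 3 highest and 3 lowest of each list, and not every gene that fits was named. Rpl3, Rpl4, Rpl7a, Rpl10a, Rpl13, Rpl14, Rpl15, Rpl21, Rpl27, Rpl29, Rpl41 and Rps28 were named after their values were seen.

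Alternatives were averaging all probe sets of a gene, shared probe sets included, signals of at least 6, median centring, quantile normalization, no paralogues and limits of 1.5-fold and 1.2-fold. A signal of at least 8, a limit on the mean of the 3 arrays, centring on bright genes and scaling within bright genes were added after seeing the data. Of the 108 single-symbol probe sets of members, 101 held distinct values. The calculation was tested on simulated data. Tools were Python 3.11.15, numpy 2.4.6, pandas 2.3.3 and matplotlib 3.10.9. Sequences are from RefSeq (GRCm38.p6).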

Additional observations from a re-analysis of the deposited data

Results flagged for a closer look

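Probe sets annotated with several symbols were left out of the counts above, although they hold bright signals of ribosomal protein genes. On those with a log2 signal of at least 6, from 23 genes, the median log2 ratio of insulin against PBS was 0.10 (22 of 31 higher). It was -0.03 for glucagon against PBS (15 of 31 higher). Of all genes that bright, 57.5% were higher with insulin (median 0.03) and 61.4% with glucagon (median 0.06). Probe sets with several symbols share probes or annotation with pseudogenes, snoRNAs or neighbouring genes, and which RNA gave the signal was not tested.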

How the results depend on the processing

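Each condition had 1 pooled array, so no setting could leave out a replicate, and no paired analysis was possible because the labels tie no array to another. The median for glucagon against PBS (0.01 as deposited) was -0.030 when all probe sets of a gene were averaged, -0.0017 with shared probe sets, -0.029 after quantile normalization and -0.068 after centring on bright genes, with 22 genes higher. Within genes of at least 6 it was -0.033 (13 higher) and -0.048 (10 higher) under the last 2 scalings, and within genes of at least 8 -0.036 (9 higher) and -0.056 (6 higher). Over all 22180 genes the same 2 scalings gave medians of -0.010 and -0.072, with 48.1% and 37.7% higher. Of all genes of at least 6, 49.4% and 47.8% were higher, and of those of at least 8, 49.9% and 47.5%. The cause was not tested. Limiting the genes to signals of at least 6 or 8 lowers each count because fewer genes are left. For insulin against PBS 34 and 27 were then higher and 3 and 0 lower, for glucagon against PBS 22 and 16 higher and 15 and 12 lower, and for insulin against glucagon 23 and 20 higher and 13 and 8 lower. With a limit of 1.5-fold, 4 genes were higher and 1 lower for insulin against PBS and 1 higher for insulin against glucagon, and with 1.2-fold 8 and 5, 9 and 7 (glucagon against PBS), and 11 and 7 (insulin against glucagon). Past 1.5-fold, 533 of all 22180 genes were higher and 433 lower for insulin against PBS, and 428 were higher for insulin against glucagon. Of 129 alternative values, 95 stayed within the tolerance (0.1 for a median and 1.5-fold for a count), 26 moved and 8 changed sign, all 8 in glucagon against PBS. Array signals near background limit the dim genes.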

Other observations

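Pseudogenes of ribosomal protein genes whose symbols end in -ps were kept apart from the 67 genes, which do include Rpl6l and Rps4l, annotated as pseudogenes in RefSeq. Of 15 symbols ending in -ps with a probe set of their own, 4 were higher with insulin than with PBS and 11 lower, with a median log2 ratio of -0.08. Of the 15 symbols, 3 had a mean log2 signal of at least 6. Rpl31-ps20 had 8.48 with insulin, 8.84 with glucagon and 8.79 with PBS (-0.31), and Rps12-ps24 had 7.07, 7.12 and 7.38 (-0.32). For Rpl34-ps2 the ratio was -0.03. These genes were looked at after the values of the family had been seen.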
